A study of Rattus norvegicus with 12 samples.

Results

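Meox2 and 8 further transcription factors known from mesenchymal cells were followed between rat fibroblasts on plastic and fibroblasts regrown from tumours. The members were all probe sets whose only gene symbol in the platform annotation was Meox2, Meox1, Twist1, Twist2, Snai1, Zeb1, Zeb2, Prrx1 or Tcf4. They came to 16 of the 31042 probe sets tested, and the 9 genes were part of 14217 genes that had such a probe set. Meox2 was 43.3-fold lower in the Tumor cells, Snai1 2.44-fold lower and Zeb1 2.92-fold higher. At their brightest probe sets, Meox1, Twist1, Twist2, Zeb2, Prrx1 and Tcf4 did not reach a 2-fold difference. The genes were selected on earlier results for the difference between these same Tumor and A16 arrays, so their differences are given as a description.

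F111 is a fibroblast line from normal Fischer rats. The A16 group was F111 cells that had adhered to plastic for 16 h. The Tumor group was cells grown in culture from explants of tumours, which had formed within 3 months in nude mice injected under the skin with NA16 cells. NA16 cells are F111 cells held in suspension for 16 h, so the tumours came from the same line, and both groups were cultured before their RNA was taken. The methods describe more serum for the explants than the labels state. How many tumours or animals stood behind an array is not given in the sources used here, and mouse host cells could be among the explanted cells. Each group had 3 arrays, named biological replicate 1, technical replicate 2 (labelled with no biological number) and biological replicate 2. The 12 sample records are these 6 arrays, each summarised once by RMA and once by PLIER, which are 2 ways to combine the probes of a probe set. Technical replicate 2 was averaged with replicate 1, which left n = 2 per group. The labels and the methods call replicates 1 and 2 biological without saying whether they were separate cultures or tumours, so a p-value measures the spread between these samples only, which may be partly technical. In such bulk RNA, fewer cells of a type and less RNA per cell cannot be told apart.

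MEOX2 and its paralog MEOX1 are homeobox proteins of the paraxial mesoderm. In adult tissue MEOX2 is known from vascular smooth muscle and endothelium, where it holds back proliferation. TWIST1 and TWIST2 are basic helix-loop-helix proteins, which bind DNA as pairs with E proteins such as TCF4 (the E2-2 protein, not the WNT effector TCF7L2 that shares this name). SNAI1, ZEB1 and ZEB2 are zinc finger repressors that bind E-boxes and silence epithelial genes such as E-cadherin during epithelial to mesenchymal transition (EMT). PRRX1 is a homeobox protein of limb and craniofacial mesenchyme. Fibroblasts normally hold many of these factors, since they are mesenchymal already.

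The E-box, CANNTG, is the site of basic helix-loop-helix proteins, and its form CAGGTG is the one that SNAI and ZEB zinc fingers prefer. TAATTA is a core that many homeobox proteins bind. These letters were looked for on both strands in RefSeq promoters of GRCr8, each 300 bases long with 250 bases before and 50 after the annotated start. Promoters were found for 8 of the 9 genes, all but Meox1. The 3 shown are those of the genes called different at their brightest probe set, with each E-box in capitals. Meox2 lies at chr6:59583775-59584074 on the plus strand, Snai1 at chr3:176667226-176667525 on the plus strand and Zeb1 at chr17:56810604-56810903 on the minus strand.
Meox2: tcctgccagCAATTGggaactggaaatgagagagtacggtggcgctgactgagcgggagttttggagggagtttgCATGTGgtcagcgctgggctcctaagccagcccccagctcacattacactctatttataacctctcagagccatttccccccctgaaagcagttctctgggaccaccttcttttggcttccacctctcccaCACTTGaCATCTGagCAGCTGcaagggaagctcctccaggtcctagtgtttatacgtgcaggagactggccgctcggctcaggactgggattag
Snai1: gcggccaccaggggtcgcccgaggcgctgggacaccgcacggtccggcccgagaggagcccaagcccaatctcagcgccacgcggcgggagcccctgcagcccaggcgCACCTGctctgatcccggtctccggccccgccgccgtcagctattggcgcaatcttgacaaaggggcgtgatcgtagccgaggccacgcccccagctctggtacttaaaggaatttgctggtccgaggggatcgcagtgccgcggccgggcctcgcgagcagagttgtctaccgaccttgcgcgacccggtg
Zeb1: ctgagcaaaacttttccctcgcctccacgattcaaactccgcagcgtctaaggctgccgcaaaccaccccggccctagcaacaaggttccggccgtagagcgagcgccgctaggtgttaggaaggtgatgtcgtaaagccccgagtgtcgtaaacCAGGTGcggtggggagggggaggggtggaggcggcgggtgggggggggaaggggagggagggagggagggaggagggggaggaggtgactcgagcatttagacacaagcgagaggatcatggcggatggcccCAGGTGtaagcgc
The Meox2 promoter held 5 matches to CANNTG, which began 241, 175, 44, 37 and 29 bases before the start, and none to CAGGTG. The Snai1 promoter held 1 E-box, 142 bases before the start, which is CAGGTG on the other strand. The Zeb1 promoter held CAGGTG at 2 places, 95 bases before and 37 bases after the start. Zeb2 had 1 match to CANNTG, 181 bases before its start, and the promoters of Twist1, Twist2, Prrx1 and Tcf4 had no match. TAATTA was in none of the 8. Of all 33469 rat promoters 72.1% held CANNTG, 18.8% held CAGGTG, which is also a CANNTG, and 5.36% held TAATTA. A match to these letters is a description and not a site shown to be bound.

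On the arrays, values are log2 of the RMA intensity, and differences are Tumor minus A16 with their standard error. A probe set was called when limma gave a Benjamini-Hochberg adjusted p under 0.05 over all 31042 and the difference was at least 2-fold. The call is higher or lower in Tumor. Of the 16 probe sets 4 were called lower, 1 higher and 11 in neither direction. Over all probe sets 11.9% of the table were called, 6.39% lower and 5.51% higher. All 3 Tumor arrays lay below all 3 A16 arrays for 6 members, above them for 5, and overlapped for 5. Over all probe sets tested, the Tumor arrays lay below for 25% and above for 27.6%, so that 52.6% did not overlap. Nothing is read from either comparison of shares, because this contrast was in view when the genes were picked. The median difference was -0.04 over the 16 members and 0.03 over all probe sets. No filter on low values was used, so every member was fitted, and 4 of them lay under the 30th percentile of mean brightness: those of Meox1 and 3 of the 5 of Zeb2. Probes differ in their response, so a level of one gene is not set against that of another. Gaps between probe sets of a gene and means over a marker list are compared only between arrays.

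**Figure D1:**
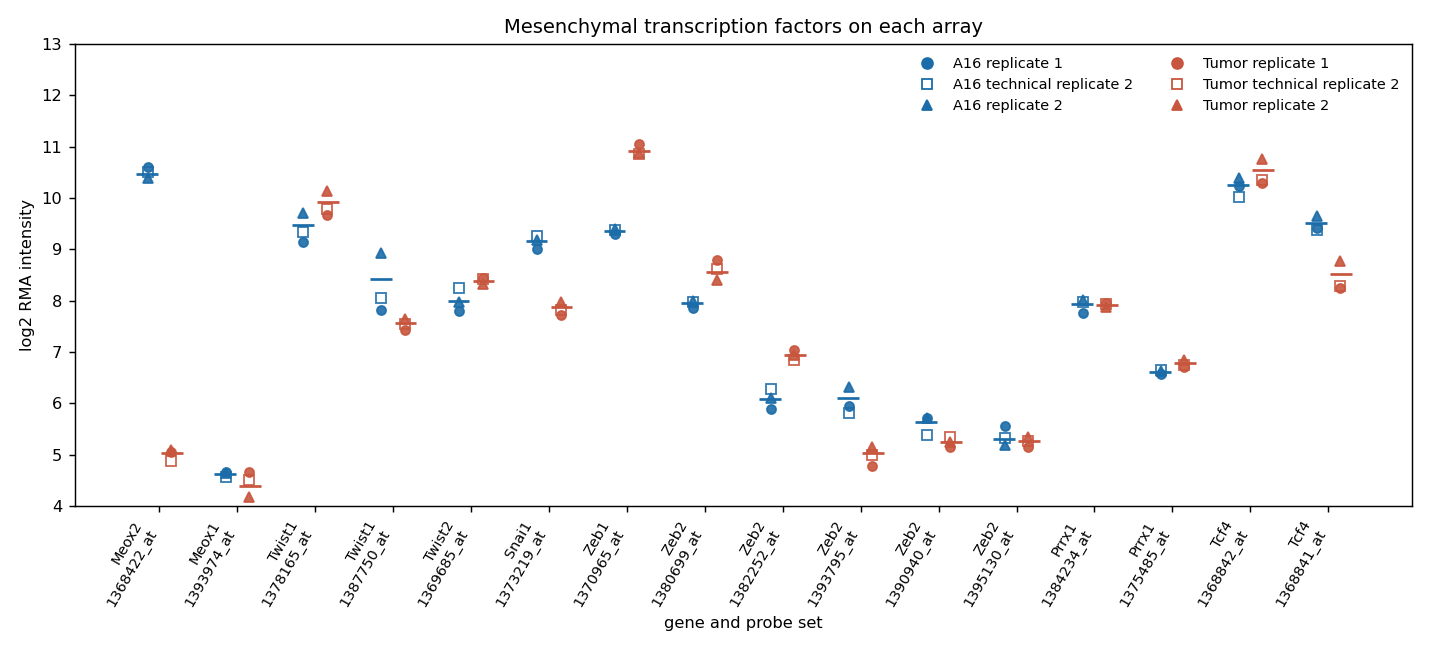
Log2 RMA intensity of each of the 16 probe sets (horizontal axis, gene and probe set) on the 6 arrays. Blue is A16 and red is Tumor, circles are replicate 1, open squares technical replicate 2, triangles replicate 2, and each bar is a group mean over n = 2. Meox2 fell from between 10.39 and 10.60 to between 4.88 and 5.09, Zeb1 and Snai1 were apart in opposite directions, and the groups of Prrx1 1384234_at lay on each other.

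Meox2 was measured by probe set 1368422_at. Its values were 10.60, 10.50 and 10.39 on the A16 arrays of replicate 1, technical replicate 2 and replicate 2. On the Tumor arrays, in the same order, they were 5.06, 4.88 and 5.09. All 3 A16 arrays were high and all 3 Tumor arrays low, and the gap between the groups was many times the spread within either. The difference was -5.44 ± 0.12 (SE, n = 2), which is 43.3-fold lower in Tumor. PLIER gave 50.4-fold lower. The Tumor values lay below 5.54, the level under which 30% of all probe sets fell, so the fold is set against a level near the floor of the array and may understate the change.

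Its paralog Meox1, at 1393974_at, was dim in every sample. It read 4.66, 4.58 and 4.65 in A16 and 4.67, 4.52 and 4.19 in Tumor. Tumor technical replicate 2 and Tumor replicate 2 lay below all A16 arrays and Tumor replicate 1 just above them, so the groups overlapped. The difference was -0.24 ± 0.16 and was not called. It lay at percentile 8.01 of brightness, where a change is measured poorly.

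Twist1, needed for mesoderm and cranial mesenchyme, had 2 probe sets whose differences had opposite signs, neither of them called. The brighter, 1378165_at, read 9.14, 9.35 and 9.71 in A16 and 9.66, 9.79 and 10.14 in Tumor, a difference of 0.45 ± 0.20. Here replicate 2 was the highest array of each group, and the groups overlapped. Leaving out A16 replicate 1 or Tumor replicate 2 brought this difference to 0.22 or 0.25, and leaving out A16 replicate 2 to 0.69, none of them called. The dimmer, 1387750_at, read 7.82, 8.05 and 8.92 in A16 and 7.44, 7.55 and 7.64 in Tumor, a difference of -0.86 ± 0.30. Its groups did not overlap, but A16 replicate 2 stood well above the other A16 arrays. Without A16 replicate 1 this probe set was called lower at -1.36, and without A16 replicate 2 it came to -0.37 and was not called. Twist2, close to Twist1 in sequence and known from dermis, had 1 probe set, 1369685_at. Its values were 7.79, 8.25 and 7.98 in A16 and 8.44, 8.42 and 8.33 in Tumor. Every Tumor array was above every A16 array, by a difference of 0.38 ± 0.11 that was under 2-fold.

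Tcf4, the E protein that pairs with TWIST factors, showed the same split between probe sets as Twist1. At the brighter, 1368842_at, A16 arrays read 10.24, 10.01 and 10.39 and Tumor arrays 10.30, 10.36 and 10.76. These groups overlapped and differed by 0.28 ± 0.18, which was not called. At 1368841_at, A16 arrays read 9.41, 9.38 and 9.65 and Tumor arrays 8.24, 8.30 and 8.77. All Tumor arrays were lower here, 2.00-fold with an SE of 0.19 on the log2 scale, and the probe set was called lower at the edge of the fold minimum. It was not called under PLIER (-0.86), after quantile normalisation (-0.96), without A16 replicate 2 (-0.88) or without Tumor replicate 1 (-0.75). The methods' t-test did not call it either, with or without adjustment.

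Snai1, at 1373219_at, read 9.01, 9.26 and 9.18 on the A16 arrays and 7.72, 7.83 and 7.97 on the Tumor arrays. Each Tumor array was below each A16 array, and neither group spread over more than a small part of the gap. The difference was -1.29 ± 0.12, or 2.44-fold lower, and it was -1.31 with PLIER. Its relative Snai2 had no probe set with that single symbol and was not analysed here.

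The ZEB factors are large repressors with a homeodomain-like segment between their zinc finger clusters. Zeb1, at 1370965_at, read 9.30, 9.37 and 9.40 in A16 and 11.06, 10.87 and 10.87 in Tumor. The Tumor arrays were all higher, with little spread in either group. The difference was 1.55 ± 0.11, or 2.92-fold higher, and PLIER gave 1.72. Zeb1 was the only one of the 9 genes with a probe set called higher by RMA.

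Zeb2 had 5 probe sets that gave different answers. The brightest, 1380699_at, read 7.86, 7.97 and 8.00 in A16 and 8.80, 8.62 and 8.40 in Tumor, all Tumor arrays higher. Its difference of 0.59 ± 0.14 was under 2-fold. The next, 1382252_at, read 5.90, 6.28 and 6.10 in A16 and 7.04, 6.84 and 6.94 in Tumor. It was again higher on all Tumor arrays, by 0.84 ± 0.11 with RMA, which was not called, and by 1.17 with PLIER, which was. The remaining 3 were dim. Of these, 1393795_at read 5.94, 5.81 and 6.33 in A16 and 4.79, 5.00 and 5.16 in Tumor, with all Tumor arrays lower. Its difference of -1.08 ± 0.18 was called lower, and that call was lost without A16 replicate 2 (-0.85) and without Tumor replicate 1 (-0.94). The methods' t-test also did not call it, with or without adjustment. The last pair, 1390940_at and 1395130_at, differed by -0.39 ± 0.12 and -0.04 ± 0.13, neither called, and the groups overlapped at the second.

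Prrx1 showed little difference at either probe set. At 1384234_at it read 7.76, 7.97 and 8.02 in A16 and 7.95, 7.94 and 7.88 in Tumor, so that the Tumor arrays lay inside the A16 range. Its difference was -0.03 ± 0.12. At 1375485_at it read 6.57, 6.64 and 6.64 in A16 and 6.70, 6.75 and 6.85 in Tumor, a difference of 0.17 ± 0.11 that was 0.55 with PLIER. The Tumor arrays were just above the A16 arrays at this probe set, which was called under neither summary. PLIER gave the same sign as RMA for 16 of the 16 members.

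**Figure D2:**
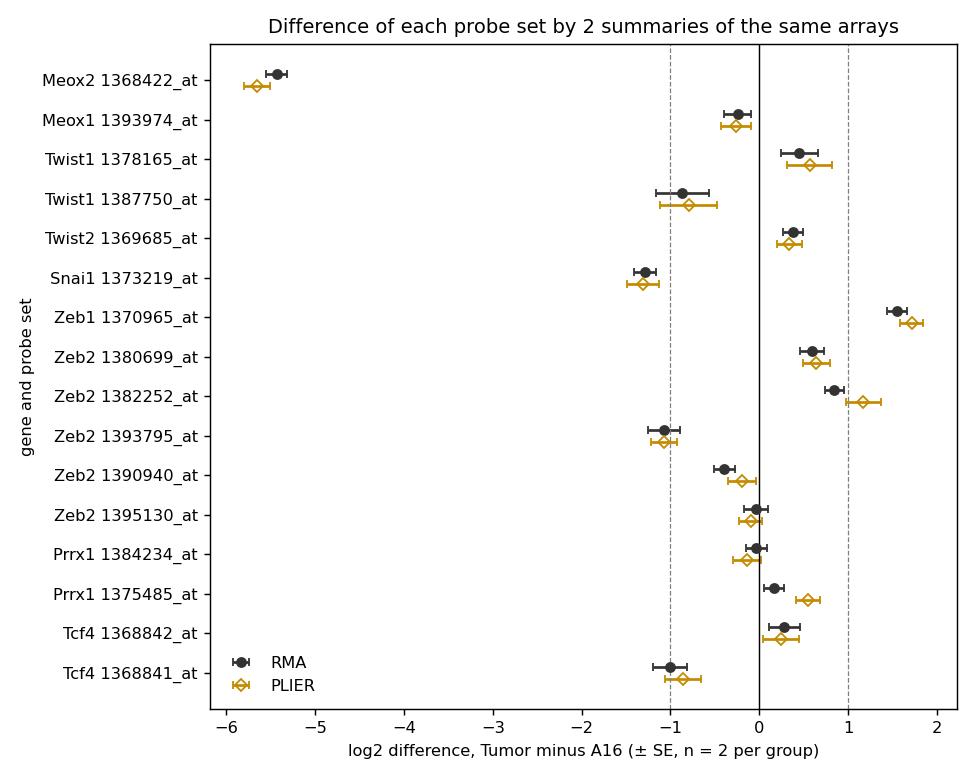
Difference between Tumor and A16 on the log2 scale (horizontal axis) for each member probe set (vertical axis), from RMA (filled circles) and PLIER (open diamonds), with bars of 1 SE over n = 2 per group. Dashed lines mark a 2-fold difference. Meox2 at -5.44 stood far to the left of all other members, and Zeb1 at 1.55 was furthest to the right.

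Twist1, Tcf4, Zeb2 and Prrx1 each had probe sets with differences of opposite signs, those of Prrx1 small (-0.03 and 0.17). The gap between a gene's brighter and dimmer probe set was therefore taken on each array. These pairs were chosen after their values were seen, as the brightest probe set against the other one or, for Zeb2, the one called lower. For Twist1 the gap was 1.32, 1.30 and 0.79 on the A16 arrays and 2.23, 2.24 and 2.50 on the Tumor arrays. For Tcf4 it was 0.83, 0.64 and 0.75 in A16 and 2.06, 2.07 and 1.99 in Tumor. The change in a gap is set by the 2 differences already given, so the gaps are no further evidence. In the pairs of Twist1, Tcf4 and Zeb2 the brighter probe set rose and the dimmer fell. Their gap must then be wider in Tumor on average. For Zeb2 the gap was 1.92, 2.16 and 1.67 in A16 and 4.01, 3.62 and 3.24 in Tumor, without overlap, as for Twist1 and Tcf4. For Prrx1 the dimmer probe set was the one that rose, and neither was called. Its gap was 1.19, 1.33 and 1.39 in A16 and 1.25, 1.19 and 1.03 in Tumor. Control probe sets for the 3' and 5' ends of beta-actin also differed between the groups. Their 3' end exceeded the 5' end by 0.69, 0.71 and 0.64 in A16 and by 2.37, 2.35 and 2.25 in Tumor, on the log2 scale. The 3' excess of the GAPDH controls was also higher on all Tumor arrays, between 0.25 and 0.33 against between -0.05 and 0.00. That of the hexokinase controls was between 1.83 and 2.30 in Tumor against between 0.84 and 1.39 in A16. Such an excess reflects how far RNA or its copies reach the 5' end. Its part in the differences of Twist1, Tcf4 and Zeb2 was not tested, and where in each transcript their probe sets lie was not analysed here. State of the RNA and group cannot be told apart in these arrays.

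**Figure D3:**
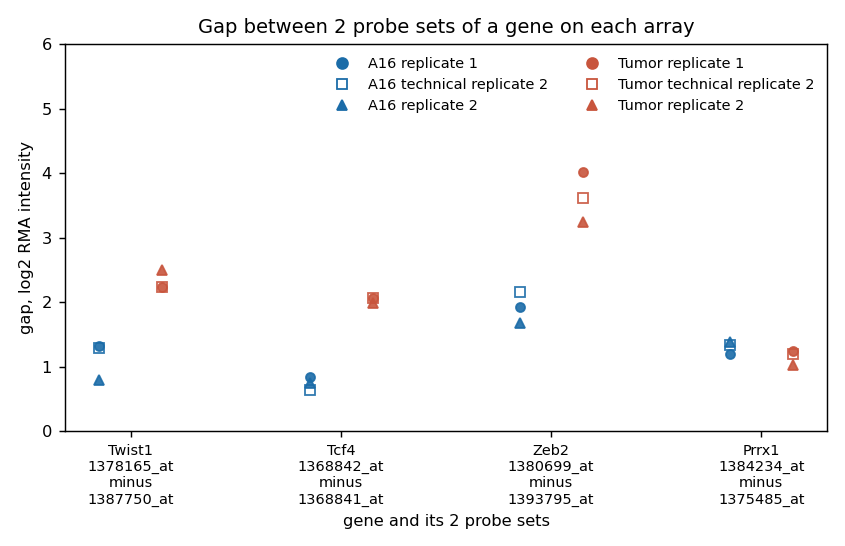
Gap on the log2 RMA scale (vertical axis) between the brighter and the dimmer probe set of 4 genes (horizontal axis) on each array, with colours for the groups and symbols for the replicates. The Tumor gaps of Twist1, Tcf4 and Zeb2, whose brighter probe set rose and dimmer fell, lay above all A16 gaps. Those of Prrx1, whose dimmer probe set rose, overlapped.

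Of 13 fibroblast markers 11 lay above the 30th percentile level in both groups, while Dcn (means of 4.69 in A16 and 5.14 in Tumor) and Lum (5.22 and 4.65), the proteoglycans decorin and lumican, lay under it. Over these 13 fibroblast markers the mean log2 level was between 10.24 and 10.40 in A16 and between 9.59 and 9.62 in Tumor, and 4 were called lower (Col1a1, Col1a2, Thy1 and P4ha1). Among 12 macrophage markers, 2 were called higher in Tumor, Csf1r by 3.14 and Cd68 by 1.07, and none lower. In A16 6 of the 12 lay under the 30th percentile level and in Tumor 5 did. Ptprc (5.13 in A16 and 5.06 in Tumor) and Adgre1 (3.97 and 4.11) were among those under it in both groups, while Cd14 (9.93 and 9.76) and Lyz2 (6.57 and 6.90) were among those above it in both. The mean over the macrophage markers was between 5.67 and 5.82 in A16 and between 6.18 and 6.23 in Tumor. Among 9 endothelial markers 1 was called higher, Flt1 by 2.32 at its brightest probe set, with 1 of its 3 probe sets called. The mean over the endothelial markers was 5.45 to 5.62 in A16 and 5.81 to 5.96 in Tumor. Of 8 pericyte or smooth muscle markers 2 were called lower (Acta2 and Mcam), and of 8 epithelial markers 1 was called higher (Krt8). With RMA no skeletal muscle, adipocyte, lymphocyte or neural marker was called, out of 7, 7, 6 and 5. PLIER called the adipocyte markers Lpl (2.36) and Fabp4 (1.03), the endothelial marker Vwf (1.05) and the epithelial marker Cdh1 (1.44) higher as well, and the endothelial marker Tie1 (-1.63) lower. The part of other cells in the members' differences was not tested.

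Meox2 and Twist1 both lie on chromosome 6 in GRCr8, and the genes taken around each overlap. Counting Meox2 and Twist1 themselves, 13 genes are in both sets. Around Meox2, the 10 nearest measured genes on each side had a median difference of 0.04, with a range from -2.01 to 2.23. Their positions ran from -4097 to 4632 kb from Meox2, with the nearest, Sostdc1 and Agmo, at -805.4 and 129.5 kb. Of these 20 genes 2 were called higher, 3 lower and 15 neither, while over all genes 5.45% were called higher and 5.44% lower. The nearest on either side, the BMP antagonist Sostdc1 (0.02, and -0.77 with PLIER) and the ether lipid enzyme Agmo (-0.04, and 0.23 with PLIER), were not called. Both lay under the 30th percentile of brightness in these cells, so a difference near 0 says little of them. Further out, Scin (scinderin, which severs actin filaments) rose by 2.23 ± 0.16 and Snx13, a sorting nexin, rose by 1.20 ± 0.26, although Snx13 was not called with PLIER. Atxn7l1 (-2.01), Bzw2 (-1.13) and the tetraspanin Tspan13 (-1.05) fell. Around Twist1, from -2447 to 3966 kb, 3 of 20 were called higher, 5 lower (Meox2 among them) and 12 neither, with a median of -0.01. Those called that are not near Meox2 were Ccdc71l at 1.34, the protein kinase A subunit Prkar2b at 1.30 and LOC102547703 at -1.10.

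**Figure D4:**
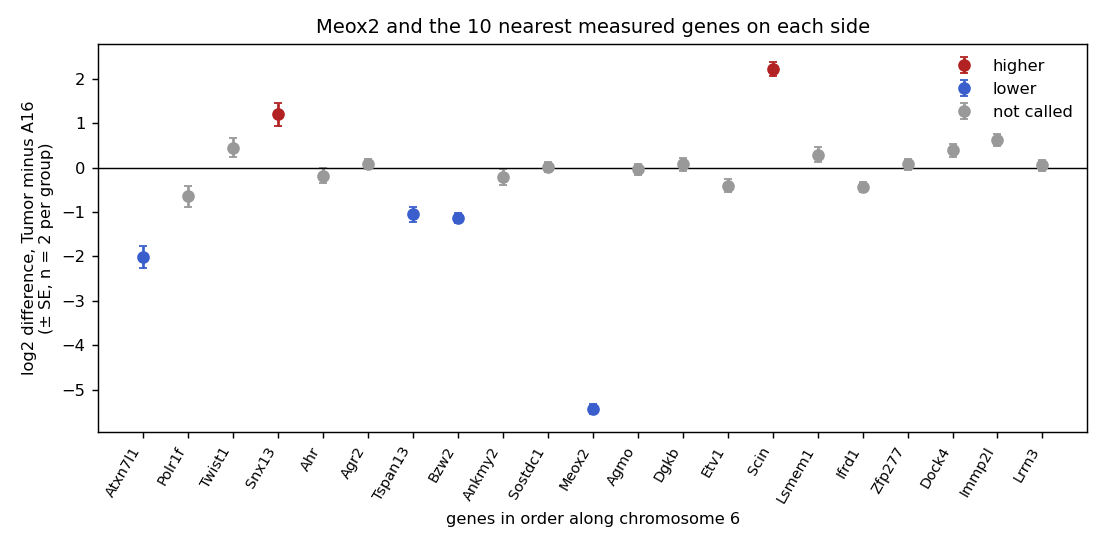
Difference between Tumor and A16 on the log2 scale (vertical axis, ± SE, n = 2 per group) for Meox2 and the 10 measured genes on each side in their order along chromosome 6 (horizontal axis, not to scale in distance). Red genes were called higher, blue lower and grey neither. Meox2 lay at -5.44 and its neighbours between -2.01 and 2.23, with the dim Sostdc1 and Agmo beside it near 0.

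The genes most like Meox2 over the 6 arrays were found by the root mean square distance between profiles, each centred on its own mean and on the log2 scale. They were Colec12 (0.21), a scavenger receptor of the collectin family, Spats2l (0.25), Heph (0.33), the ferroxidase hephaestin, Rtp4 (0.36) and Rsad2 (0.43). Each was high on 3 A16 arrays and low on 3 Tumor arrays. Colec12 read 10.77, 10.92 and 10.83 in A16 and 5.84, 5.46 and 5.30 in Tumor, a difference of -5.36 ± 0.15. With 2 groups so far apart, likeness over 6 arrays says little more than that the sizes of the differences are alike.

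The members sit in a wider set of regulators and targets, which was taken as 9 gene lists. They name 368 genes with the cell type markers, and 300 were measured. Each gene stands at its brightest probe set, and over all 14217 genes 10.9% were called and the median was 0.03. The lists were written with results of this contrast known, so their counts describe these samples and are no independent evidence of a direction.

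Among further EMT and mesenchymal transcription factors, 31 of 50 were measured. Of these 2 rose, 9 fell and 20 were called in neither direction, with a median of -0.31. Tbx3, a T-box repressor of limb and mammary development, rose by 3.80 ± 0.15 at its brightest probe set, and its other 3 probe sets were not called (0.38, 0.17 and -0.11). Scx, the tendon factor scleraxis (-3.30), Foxf1, a forkhead factor of lung and gut mesenchyme (-2.46), and Wt1, a zinc finger factor of mesothelium and kidney (-1.98), fell. The other probe sets of Foxf1 (-0.95) and Wt1 (-0.49) were not called. Prrx2, the paralog of Prrx1, had a difference of 0.65 and was not called. With PLIER 4 genes of this list were called higher.

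E proteins, Id proteins and other basic helix-loop-helix factors showed large differences in both directions. Id proteins lack a DNA-binding region and hold E proteins away from partners such as TWIST1. Of 19 genes 4 rose, 4 fell and 11 were called in neither direction, with a median of -0.03 (-0.33 with PLIER). Id4 rose by 4.36 ± 0.21, with 3 of its 4 probe sets called higher. Id1 (-2.39 ± 0.14) and Id3 (-1.21 ± 0.13) fell. Id2 was higher by 1.85 ± 0.39 at its brightest probe set and was called, while its other probe set gave -0.48. Across the alternatives this Id2 difference ran from 1.19 to 2.52, and the methods' t-test did not call it. The 4 Id genes thus did not move together. Among E proteins, Tcf3 fell by 1.83 ± 0.18, whereas Tcf12 had differences of 0.28 and -0.98 at its 2 probe sets, neither called. The circadian repressor Bhlhe41 rose by 2.46, and the Notch target Hey1 rose by 2.05.

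Paraxial mesoderm and homeobox partners of MEOX factors counted 12 measured genes, of which 2 rose, 2 fell and 8 were called in neither direction, with a median of -0.12. The EYA coactivators parted, with Eya2 higher by 2.55 at its brightest probe set (0.52 and not called at the other) and Eya1 lower at -1.33. Six4, which binds DNA with EYA proteins, fell by 1.19, and Meis2, a cofactor of HOX proteins, rose by 1.08 (0.98 and not called without Tumor replicate 1). Of 22 measured HOX genes, which set position along the body axis and in limbs, 2 rose, 2 fell and 18 were called in neither direction, with a median of -0.06. Hoxd10 (-4.05 ± 0.18) and Hoxa10 (-1.11) fell, while Hoxb13 rose by 2.01 and Hoxa5 by 1.49.

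Cofactors, chromatin partners and degradation factors of SNAI and ZEB proteins numbered 30, of which 6 fell, none rose and 24 were called in neither direction, with a median of -0.09. The kinase Pak1, which phosphorylates SNAI1 (-2.16), the acetyltransferase Kat2b (-1.23), the deacetylase Hdac1 (-1.19) and the LIM protein Limd1 (-1.18) fell. A further probe set of Hdac1 was not called (-0.21).

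Of 39 measured genes listed as epithelial targets of repression, 2 rose, 5 fell and 32 were called in neither direction, with a median of -0.01. Whether SNAI or ZEB factors repress each of them was not tested. Of the 39, 16 were dim. E-cadherin, Cdh1, was not called with a difference of 0.93 ± 0.12, from a mean of 4.94 in A16 to 5.87 in Tumor. It was called higher with PLIER (1.44) and came to 1.02 without Tumor replicate 1. The other Cdh1 probe set, dim in both groups, gave 0.02 and was not called. The keratin Krt7 (-3.61), the desmosomal plakophilin Pkp2 (-2.77) and P-cadherin, Cdh3 (-2.04), fell, while the adhesion molecule Mpzl2 rose by 2.71.

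Mesenchymal effector genes, such as matrix, contractile and adhesion genes, had 15 lower, 2 higher and 22 in neither direction out of 39. Their median was -0.27, and -0.52 with PLIER. Tagln, the actin-binding protein transgelin (-4.77), the collagen crosslinking enzymes Lox (-3.53) and Loxl2 (-3.16), and the collagen chain Col1a1 (-3.46) fell. N-cadherin, Cdh2 (-2.53 ± 0.25), and fibronectin, Fn1 (-1.27), fell, whereas vimentin, Vim, did not pass the test (-0.10) with means of 14.3 in A16 and 14.2 in Tumor. Of 3 Cdh2 probe sets 2 were called lower and the third was not (-0.20), and at the brightest PLIER gave -4.23.

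Genes that have been linked to MEOX factors numbered 19, of which 1 rose, 4 fell and 14 were called in neither direction, with a median of -0.18. The ligands Tgfb3 (-3.83) and Tgfb2 (-2.21) fell. Cdkn1a, the cell cycle inhibitor p21 that MEOX2 is known to induce, and the guidance factor Slit2 also fell (-1.70 and -1.66). A further Slit2 probe set, dim in both groups, was not called (0.07). The gene of this list that rose was Vcam1, by 1.55 with RMA and 2.40 with PLIER. Signals known to act upstream of the members, which also hold these TGF-beta ligands, had 4 higher, 5 lower and 32 in neither direction out of 41. Their median was -0.02 with RMA and 0.15 with PLIER. Tcf7, a nuclear effector of WNT signalling, rose by 2.18 and the growth factor Hgf by 1.85.

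**Figure D5:**
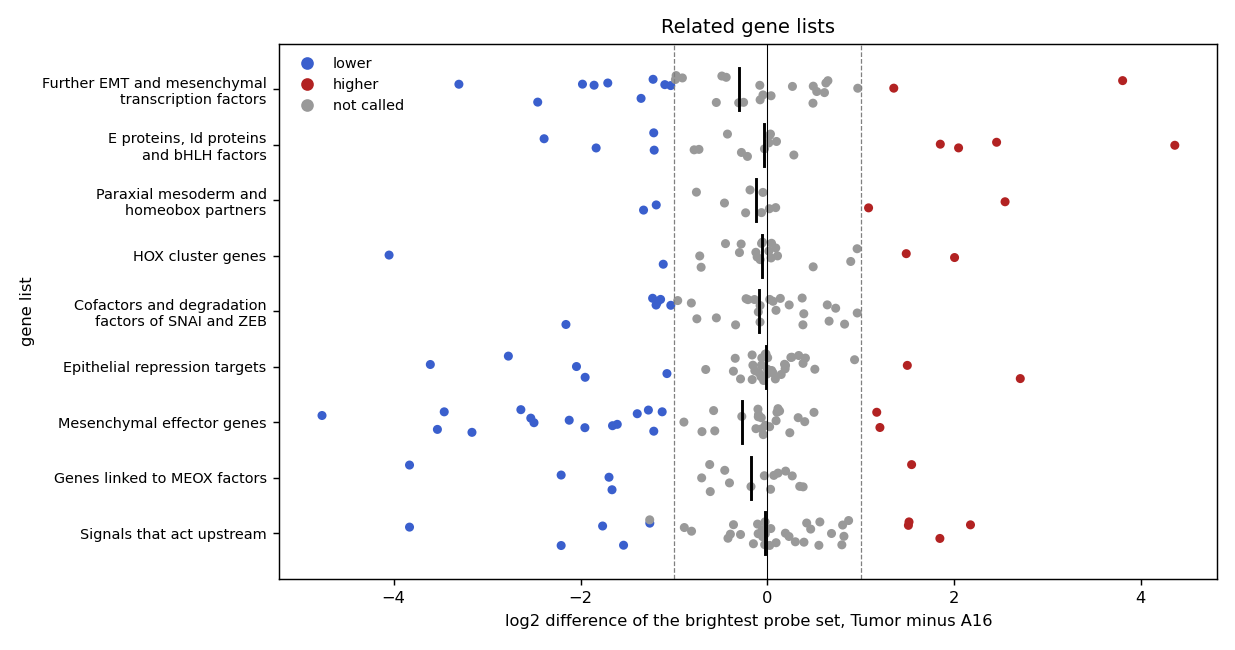
Difference between Tumor and A16 on the log2 scale at the brightest probe set (horizontal axis) for each measured gene of the 9 lists (vertical axis, with points spread for sight only). Blue genes were called lower, red higher and grey neither, black bars are list medians and dashed lines mark 2-fold. Mesenchymal effector genes had 15 called lower and 2 higher, and helix-loop-helix factors had 4 each way.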

How the data were processed

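For the Affymetrix rat arrays the authors deposited linear intensity, summarised by RMA and again by PLIER. Avadis did the normalisation per the study's methods, with no version stated. The median RMA intensity was 98.02 to 100.1 per array. PLIER had 16 as its lowest value, so no pseudocount was added. The log2 of each value was taken here, 57 array controls were left out, and technical replicate 2 was averaged with replicate 1. The number of arrays limits the precision. Differences were fitted with lmFit and eBayes of limma 3.58.1 in R 4.3.3, two-sided, after the script was tested on simulated data. Platform symbols numbered 1 for 20826 probe sets, several for 436 and none for 9780. A gene with several probe sets stood at the brightest. The members and lists were chosen with earlier results of these data known. Named genes were all members, up to 4 called genes per list by size of difference, and fixed genes such as Cdh1 and Vim. Called neighbours and the 5 profiles nearest Meox2 were named too. Vcam1 was named besides, with RMA and PLIER only. Alternatives were PLIER, no technical replicate, separate arrays, a replicate block, quantile normalisation, a brightness filter, an intensity trend, the methods' t-test and leaving out each replicate. For named genes outside the members these alternatives were added after seeing the data.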

Additional observations from a re-analysis of the deposited data

How the results depend on the processing

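With 2 replicates per group and 1 contrast, the spread rests on few samples, and dim probe sets bound little. Serum, culture, karyotype and RNA state go with group. PLIER called 2 members higher in place of 1, 4 in place of 2 further EMT factors, and 2 in place of 1 genes linked to MEOX factors. Among markers it called 2 adipocyte genes higher in place of 0, 2 endothelial in place of 1 and 2 epithelial in place of 1. The methods' t-test on the same averaged values called 2 members lower in place of 4, and 1 higher, at its unadjusted threshold. After Benjamini-Hochberg adjustment it called 0 members lower and 0 higher, with 8 lower and 4 higher over all probe sets against 1985 and 1709 by limma. Leaving out each replicate gave between 2 and 5 members called lower and 1 called higher each time, with 2 lower without A16 replicate 2 or without Tumor replicate 1. Signs turned only at uncalled differences near 0. Prrx1 1384234_at came to 0.021 without the technical replicates, 0.0048 with arrays as separate samples and 0.058 after quantile normalisation. Leaving out each replicate took it from -0.11 to 0.045 (0.045 without A16 replicate 2, 0.0018 without Tumor replicate 2) and Zeb2 1395130_at from -0.17 to 0.090 (0.090 without A16 replicate 1, 0.025 without Tumor replicate 1). The labels pair A16 with Tumor samples by no more than a replicate number. Replicate 1 minus replicate 2 in A16 correlated with the same in Tumor at 0.12 over probe sets. The replicate block gave 2035 lower and 1715 higher over all probe sets and 4 and 1 among members. Meox2, Snai1 and Zeb1 kept sign and call in every alternative but the adjusted t-test.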
